A study of Rattus norvegicus with 29 samples.

Results

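Glycine receptor subunits, GABA-B receptor subunits and tandem-pore (K2P) potassium channels are inhibitory membrane proteins that inhaled anaesthetics are known to act on or beside. They were followed here across 29 one-colour expression arrays of rat basolateral amygdala. The members were all probe sets (groups of short probes read as 1 value) annotated to 9 rat genes, Glra1, Glra2, Glrb, Gabbr1, Gabbr2, Kcnk1, Kcnk2, Kcnk3 and Kcnk9, of 10411 genes with a probe set of their own on the array. The 9 genes were covered by 18 probe sets, and 0 probe sets were shared with another gene. Of these, 11 probe sets of 7 genes reached the level required for testing, a mean log2 signal at or above 7.26. The other 7 stayed below it, among them both probe sets of Glra1 and the single one of Kcnk9.

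The arrays fell into 5 groups: 9 baseline arrays with no time given, and 5 arrays each taken 6 h after pain, after isoflurane, after fear conditioning, and after fear conditioning in the presence of isoflurane. Isoflurane is an inhaled anaesthetic, and pain is a component of the conditioning procedure. Strain, sex, age, dose and genotype are not given in the sources used here. The labels abbreviate both conditioning groups, and the abbreviations were read through the description of the design. Rat numbers are given for 15 arrays only (pain and both conditioning groups), so p-values measure the spread between these samples, which may in part be technical. The labels name a kit for labelling RNA on the baseline and the isoflurane arrays alone. For the remaining 3 groups no kit is named. A difference between those 3 groups and baseline or isoflurane cannot be told apart from a difference in labelling.

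Glycine receptors are chloride channels opened by glycine. Alpha subunits such as Glra1 and Glra2 bind the ligand, and the beta subunit Glrb ties the receptor to the scaffold protein gephyrin at inhibitory synapses. The GABA-B receptor is a G protein-coupled receptor that works only as a pair: Gabbr1 binds GABA and Gabbr2 couples to the inhibitory G protein, which in turn opens inwardly rectifying potassium channels and closes calcium channels. K2P channels pass the background potassium current that holds neurons near their resting potential. Kcnk2 (TREK-1) and the acid-sensitive channels Kcnk3 (TASK-1) and Kcnk9 (TASK-3) are known to be activated by volatile anaesthetics, whereas Kcnk1 (TWIK-1) is a weakly conducting relative.

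The promoters of 5 of the 9 genes were in the RefSeq promoter table (build GRCr8), in 6 windows. The 250 bases before the transcription start are shown for Glrb, Gabbr2 and Kcnk2, the 3 genes with a window that lies outside their own annotated gene span, and 1 gene of each family. Each is written 5′ to 3′ on its gene's strand, here the minus strand for all 3, and capitals mark matches to a searched motif. The Glrb window is chr2:168505615-168505864, the Gabbr2 window chr5:66083696-66083945 and the Kcnk2 window chr13:103494687-103494936.
Glrb: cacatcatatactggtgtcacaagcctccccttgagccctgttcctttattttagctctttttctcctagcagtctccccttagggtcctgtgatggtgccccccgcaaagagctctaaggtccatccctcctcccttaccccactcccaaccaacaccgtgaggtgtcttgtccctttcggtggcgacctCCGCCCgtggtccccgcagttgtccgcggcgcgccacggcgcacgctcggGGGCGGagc
Gabbr2: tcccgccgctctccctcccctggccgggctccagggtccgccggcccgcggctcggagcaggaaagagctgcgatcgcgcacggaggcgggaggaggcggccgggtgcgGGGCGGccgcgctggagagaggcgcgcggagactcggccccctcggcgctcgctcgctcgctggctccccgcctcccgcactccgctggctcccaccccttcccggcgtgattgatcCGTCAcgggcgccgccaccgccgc
Kcnk2: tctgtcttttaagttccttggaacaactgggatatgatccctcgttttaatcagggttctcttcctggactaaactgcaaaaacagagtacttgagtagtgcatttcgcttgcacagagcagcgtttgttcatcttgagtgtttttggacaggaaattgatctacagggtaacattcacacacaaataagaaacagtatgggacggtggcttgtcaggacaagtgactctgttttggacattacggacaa

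The motifs searched, on both strands, were the cAMP response element TGACGTCA and its core TGACG (which the longer motif contains), the GC box GGGCGG, the TATA box TATAAA, and AGAACA of the glucocorticoid receptor element. The Glrb window held 2 GC boxes, at 59 and 9 bases before the start. The Gabbr2 window held 1 GC box at 141 bases and 1 TGACG at 24 bases, which is read on the opposite strand. None of these letter strings stood in the Kcnk2 window. GC content was 61.2% for Glrb, 78.8% for Gabbr2 and 42.0% for Kcnk2, against a median of 51.2% over all 33465 windows of the same length. Of those windows, 30.5% held the GC box, 18.2% TGACG, 1.59% the full cAMP response element, 12.9% the TATA box and 17.5% AGAACA. These matches describe the letters and are not evidence of binding.

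Forebrain projection neuron genes were present on the arrays: the vesicular glutamate transporter Slc17a7 averaged 11.71 on its brighter probe set and the neuritin gene Nrn1 averaged 11.23 (log2 signal over all arrays). Neurod6 and Rspo2, also listed as markers of these cells, were not analysed here. Pairwise correlations between arrays ran from 0.912 to 0.973, and 0 pairs of arrays were identical. Genes of adjoining tissue varied between arrays: the choroid plexus gene Ttr spanned 6.92 to 13.87, and Drd2, a receptor of striatal neurons, 6.21 to 9.10. In whole tissue, fewer cells of a type and less RNA per cell cannot be told apart.

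None of the 11 tested probe sets of these genes passed the adjusted threshold of 0.05 in limma (Benjamini-Hochberg over 9520 probe sets) in any of 9 contrasts or in the F test over the 5 groups. Across the whole array, 0.0105% of tested probe sets (1 probe set) were called when isoflurane was compared with baseline, and 0% in the F test and the remaining contrasts. At an unadjusted p under 0.05, 11 of 99 member differences stood out: 7 in the 3 glycine receptor probe sets, 4 in the 3 K2P probe sets and 0 in the 5 GABA-B probe sets. The 7 were Glra2 1387696_a_at after pain, isoflurane and conditioning and in the interaction, Glrb after isoflurane and after conditioning, and Glra2 1371153_a_at after conditioning under isoflurane. The 4 were Kcnk1 after conditioning under isoflurane, against baseline and against isoflurane, and Kcnk3 after isoflurane and in conditioning under isoflurane minus isoflurane. Contrast by contrast, the counts among the 11 tested probe sets were 1 in pain minus baseline (8.96% of all probe sets), 3 in isoflurane minus baseline (5.38%), 2 in conditioning minus baseline (10.1%) and 2 in conditioning under isoflurane minus baseline (6.5%). They were 2 in conditioning under isoflurane minus isoflurane (4%), 1 in the interaction of conditioning and isoflurane (4.79%) and 1 in the F test (7.35%). The count was 0 in conditioning minus pain (9.04%), in conditioning under isoflurane minus conditioning (3.69%) and in the average isoflurane effect (3.75%). The counts were not tested against these shares. The 4 contrasts against baseline share the same 9 arrays, so their values are given side by side and are not independent.

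**Figure D1:**
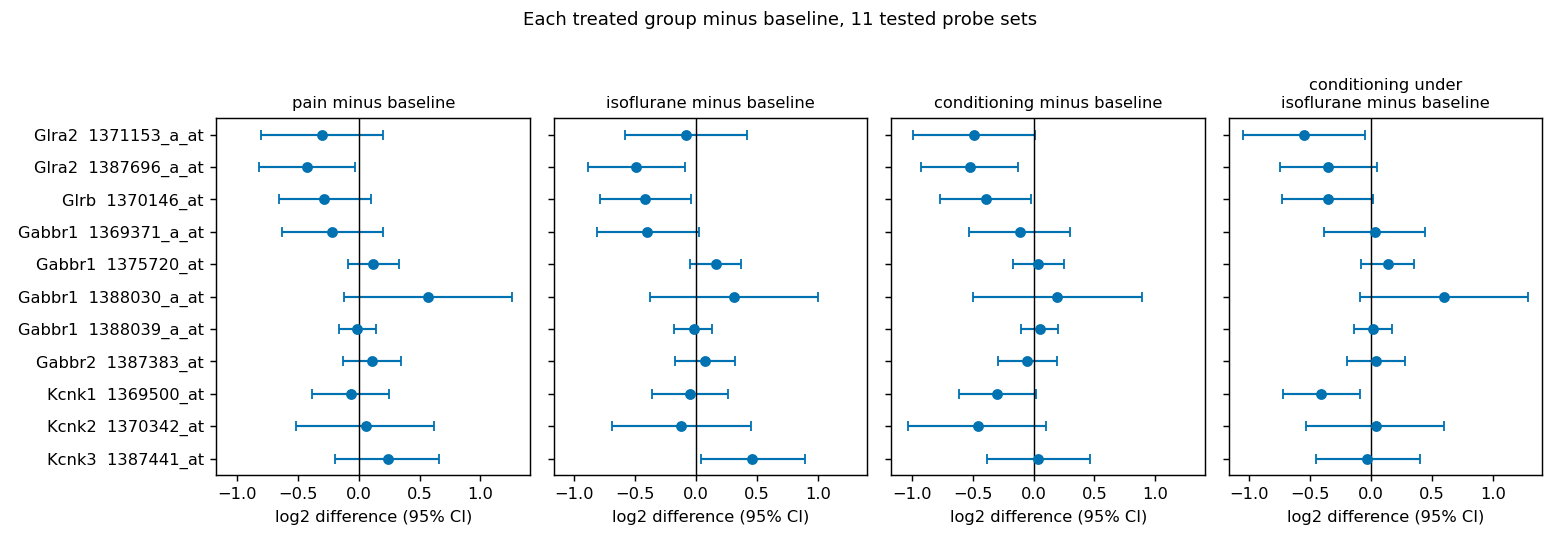
Log2 difference of each treated group from baseline for the 11 tested probe sets, with points at the limma estimate, bars for the 95% confidence interval and 1 panel per group. The glycine receptor sets lie left of 0 in all 4 panels, Gabbr1 1388039_a_at has the narrowest bars around 0, and Kcnk3 lies right of 0 after isoflurane.

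Among the ligand-binding alpha subunits, Glra2 had its highest mean in the baseline group on both of its probe sets. On 1387696_a_at the 9 baseline arrays ran from 9.18 to 10.03 with a median of 9.54 (log2 signal). Values after pain were 8.69, 9.27, 9.26, 9.13 and 9.20, and the isoflurane arrays 9.46, 8.91, 9.07, 9.43 and 8.36. Both groups overlapped the baseline range, although each of their 10 arrays was under 9.53, the mean at baseline. The conditioning arrays read 8.41, 8.74, 9.80, 8.99 and 9.10, and those conditioned under isoflurane 9.48, 8.65, 8.87, 9.20 and 9.73. In each of these groups 4 of 5 arrays lay below the baseline mean, with 1 array, at 9.80 and at 9.73, above it.

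The group means of Glra2 1387696_a_at were ordered from baseline (9.53 ± 0.26, SD, n = 9) through conditioning under isoflurane (9.19 ± 0.44, n = 5), pain (9.11 ± 0.24), isoflurane (9.04 ± 0.45) and conditioning (9.01 ± 0.52). The step of 0.34 below baseline exceeded the smaller SD of the pair, 0.26, while the 3 steps among treated groups were 0.08 or less and lay within their SDs. Against baseline, the log2 difference was -0.42 after pain (SE 0.19, limma adjusted p = 0.524) and -0.49 after isoflurane (SE 0.19, adjusted p = 0.922). It was -0.52 after conditioning (SE 0.19, adjusted p = 0.417), a 0.695-fold level with an interval of 0.528 to 0.915, and -0.35 after conditioning under isoflurane (SE 0.19, adjusted p = 0.8). Without isoflurane replicate 5, the lowest array of that group, the isoflurane difference was -0.32 (limma adjusted p = 0.869).

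The baseline arrays of Glra2 1387696_a_at were themselves uneven. Replicates 1 to 5 averaged 9.67 and replicates 6 to 9 averaged 9.36. Set against replicates 1 to 5 alone, the differences were -0.56 after pain, -0.63 after isoflurane and -0.66 after conditioning. Set against replicates 6 to 9 alone, they were -0.25, -0.32 and -0.35 (limma adjusted p from 0.46 to 0.604). The direction was the same with either part of the baseline, and the size changed by more than 1.5 times.

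The interaction contrast asks whether conditioning differed more from its own control without isoflurane than with it. For Glra2 1387696_a_at, conditioning under isoflurane minus isoflurane was 0.14, conditioning minus baseline was -0.52, and the interaction was 0.67 on the log2 scale (SE 0.29, limma adjusted p = 0.959). It was 0.49 with baseline replicates 6 to 9 alone (limma adjusted p = 0.622) and 0.34 when both Glra2 probe sets were averaged (adjusted p = 0.974). The average isoflurane effect for this probe set was -0.16 (interval -0.46 to 0.14).

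The dimmer Glra2 probe set, 1371153_a_at, lay close to the level required for testing. Its baseline arrays ran from 7.02 to 8.28 with a median of 7.67. The conditioning arrays read 7.16, 6.44, 7.32, 7.48 and 7.22, and those conditioned under isoflurane 7.13, 7.27, 6.44, 7.20 and 7.25. All 10 arrays of the conditioning groups lay below the baseline mean of 7.61, and in each group 1 array, at 6.44, lay below every baseline array. Values after pain were 7.19, 7.63, 6.84, 7.23 and 7.66 and the isoflurane arrays 8.23, 6.49, 7.61, 7.61 and 7.72, so both straddled the baseline mean. Means ran from baseline (7.61 ± 0.49, SD, n = 9) through isoflurane (7.53 ± 0.64, n = 5), pain (7.31 ± 0.34) and conditioning (7.12 ± 0.40) to conditioning under isoflurane (7.06 ± 0.35), and no neighbouring step exceeded the smaller SD.

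For Glra2 1371153_a_at the log2 differences from baseline were -0.30 after pain, -0.08 after isoflurane, -0.49 after conditioning (SE 0.24, limma adjusted p = 0.498) and -0.55 after conditioning under isoflurane (SE 0.24, adjusted p = 0.73). Against baseline replicates 6 to 9 alone the last was -0.36 (limma adjusted p = 0.618). The interaction on this probe set was 0.01 (SE 0.37), against 0.67 on the brighter one. The probe sets of Glra2 thus ordered the treated groups differently, isoflurane being near the bottom on 1387696_a_at and next to baseline on 1371153_a_at. With both averaged per array, Glra2 differed from baseline by -0.36, -0.28, -0.51 and -0.45 after pain, isoflurane, conditioning and conditioning under isoflurane (SE 0.18 each, lowest limma adjusted p = 0.398).

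Glrb, the beta subunit that anchors the receptor at the synapse, had 1 probe set (1370146_at). Its baseline arrays ran from 8.79 to 9.39 with a median of 9.17. The pain arrays read 8.95, 8.88, 8.48, 9.00 and 8.96, a tight group with 1 low array, and all 5 lay below the baseline mean of 9.13. The isoflurane arrays read 9.18, 7.76, 8.52, 9.06 and 9.05. Replicates 1, 4 and 5 thus lay inside the baseline range, replicate 3 below it and replicate 2 far below it. The conditioning arrays read 8.45, 8.63, 9.42, 8.46 and 8.72. Of these, 4 lay below every baseline array and replicate 3 lay above all of them. The arrays conditioned under isoflurane read 8.91, 8.70, 8.29, 9.04 and 8.96, all below the baseline mean.

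Means of Glrb were ordered from baseline (9.13 ± 0.22, SD, n = 9) through pain (8.85 ± 0.21, n = 5), conditioning under isoflurane (8.78 ± 0.30) and conditioning (8.74 ± 0.40) to isoflurane (8.71 ± 0.59). The step from baseline to pain, 0.28, exceeded the smaller SD of 0.21, and the remaining steps of 0.07 or less did not. The log2 difference from baseline was -0.28 after pain (SE 0.18, limma adjusted p = 0.66), -0.42 after isoflurane (adjusted p = 0.922), -0.39 after conditioning (adjusted p = 0.485) and -0.35 after conditioning under isoflurane (adjusted p = 0.792), with an SE of 0.18 throughout. A single array carried much of the isoflurane value: without isoflurane replicate 2 the difference was -0.18 (limma adjusted p = 0.999). The conditioning value ranged from -0.57 to -0.32 as single arrays were left out. The baseline parts agreed more closely here, with 9.16 in replicates 1 to 5 and 9.09 in replicates 6 to 9.

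**Figure D2:**
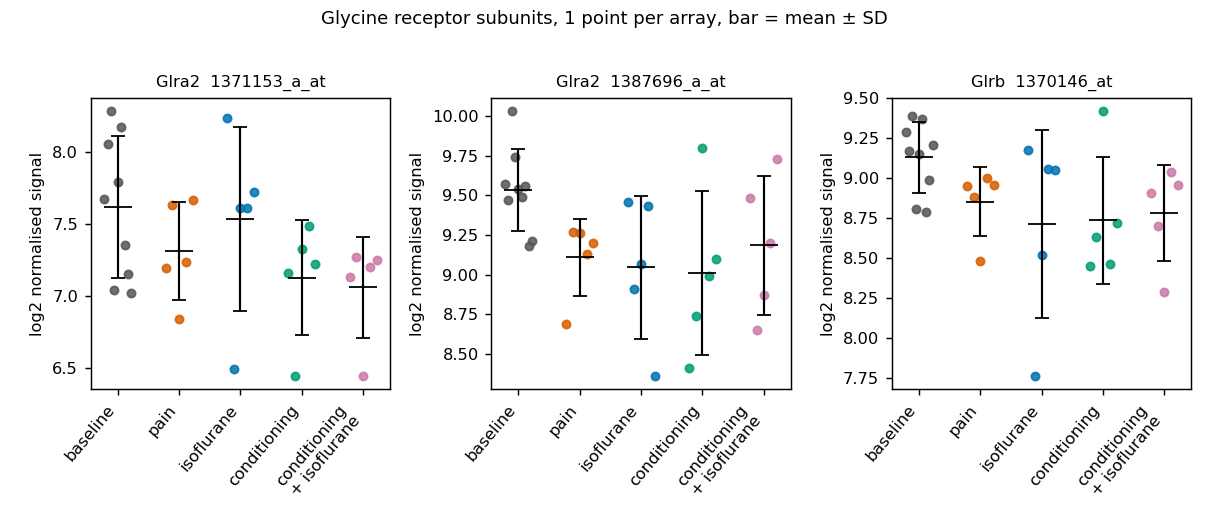
Log2 normalised signal of the 3 tested glycine receptor probe sets on each array, with 1 point per array, a bar at the group mean and whiskers of 1 SD; the vertical axes differ between panels. The baseline mean is the highest in each panel, and single low arrays stand out, such as isoflurane replicate 2 at 7.76 for Glrb.

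Several of the cell type marker lists shifted in the conditioning group, and some shifted the same way in other groups. In conditioning minus baseline, 8 of 8 tested oligodendrocyte genes (median log2 difference 0.35) and 10 of 10 astrocyte genes (0.20) were higher. So were 4 of 4 tested endothelial and pericyte genes (0.29) and 5 of 5 tested microglial genes (0.24). Flt1, Pecam1 and Vwf of the endothelial list and Cd68 and Itgam of the microglial list lay below the level for testing. In the same contrast 7 of 8 genes of GABAergic neurons were lower (-0.28) and 5 of 5 tested striatal genes were lower (-0.32), against a median of 0 over all probe sets. Genes of neurons in general had a median of -0.03 (3 lower, 2 higher), and those of excitatory projection neurons 0.15 (2 lower, 3 higher). The mean log2 signal of the general neuronal genes was 11.43 at baseline and 11.42 after conditioning. The summed quantile-normalised signal of the oligodendrocyte genes, on the linear scale, ran from 11509 to 20681 at baseline and from 16664 to 22948 after conditioning. That of the astrocyte genes ran from 20212 to 26531 and from 25263 to 32394, and that of the GABAergic genes from 12800 to 16012 and from 9614 to 13656. For the endothelial and pericyte genes it ran from 1188 to 1641 and from 1422 to 2114, and for the microglial genes from 2704 to 4400 and from 3285 to 5752. None of these markers passed the adjusted threshold. Glycine receptors are mainly neuronal, and the part of these shifts in the lower Glra2 and Glrb values after conditioning was not tested. In isoflurane minus baseline the medians were 0.08 for oligodendrocytes, -0.02 for astrocytes, -0.03 for microglia, 0.15 for endothelium and pericytes, -0.02 for GABAergic neurons and -0.05 for striatum. There, 7 of 8 oligodendrocyte, 4 of 10 astrocyte, 2 of 5 microglial and 4 of 4 endothelial and pericyte genes were higher. In pain minus baseline the higher genes were 7 of 8 (median 0.11), 8 of 10 (0.15), 5 of 5 (0.06) and 4 of 4 (0.15) in the same order. After pain, 3 of 8 GABAergic genes (median 0.03) and 4 of 5 striatal genes (-0.19) were lower. The glial and vascular direction was thus not confined to conditioning.

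Of the 5 tested GABA-B probe sets, 3 varied little between arrays of a group (SD pooled over groups 0.14 for Gabbr1 1388039_a_at, 0.20 for Gabbr1 1375720_at and 0.23 for Gabbr2), and the other two Gabbr1 sets varied more (0.40 and 0.67, the latter the highest of the 11 tested sets). On Gabbr1 1388039_a_at, the baseline arrays ran from 12.01 to 12.47 with a median of 12.23. The pain arrays read 12.37, 12.16, 12.34, 12.12 and 12.22, the isoflurane arrays 12.07, 12.10, 12.19, 12.36 and 12.41, the conditioning arrays 12.31, 12.42, 12.16, 12.47 and 12.15, and those conditioned under isoflurane 12.34, 12.22, 12.40, 12.11 and 12.25. The treated arrays thus covered the same range as baseline. Group means ran only from 12.30 after conditioning to 12.23 after isoflurane, with SDs of 0.11 to 0.15. The largest difference from baseline on this probe set was 0.05 after conditioning (SE 0.07, limma adjusted p = 0.844). Over the 4 treated groups its 95% intervals covered ratios from 0.885 to 1.15, so a change of more than about that size was outside the intervals on this probe set.

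Gabbr2, the coupling subunit, was similar on probe set 1387383_at. Its baseline arrays ran from 11.07 to 11.64 with a median of 11.35. Pain arrays gave 11.14, 11.24, 11.70, 11.70 and 11.54, the isoflurane arrays 11.41, 11.73, 11.54, 11.05 and 11.41, the conditioning arrays 11.59, 11.04, 11.51, 11.24 and 11.16, and those conditioned under isoflurane 11.37, 11.22, 11.31, 11.48 and 11.58. All groups overlapped over most of their range. Means ran from 11.46 ± 0.26 (SD, n = 5) after pain to 11.31 ± 0.24 after conditioning, with baseline at 11.35 ± 0.22 (n = 9) and every neighbouring step at 0.04 or less. Differences from baseline were 0.11, 0.07, -0.05 and 0.04 after pain, isoflurane, conditioning and conditioning under isoflurane (SE 0.12 each, lowest limma adjusted p = 0.815), with intervals covering ratios from 0.818 to 1.28.

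The other Gabbr1 probe sets were more scattered and did not run together. On 1369371_a_at the baseline arrays ran from 9.16 to 9.96 with a median of 9.34, and the isoflurane arrays read 9.13, 8.64, 8.81, 9.24 and 9.93. Of the isoflurane arrays, 3 lay below every baseline array and 1 near the top of the baseline range. The log2 difference was -0.40 after isoflurane (SE 0.20, limma adjusted p = 0.94) and between -0.22 and 0.03 in the other treated groups. On 1375720_at the baseline arrays ran from 11.03 to 11.64 with a median of 11.48, and the isoflurane arrays read 11.69, 11.76, 11.67, 11.41 and 11.31, with 3 above every baseline array. The difference there was 0.16 after isoflurane (SE 0.10, adjusted p = 0.983), in the opposite direction.

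Gabbr1 1388030_a_at had the widest spread of the 5 tested GABA-B probe sets. The pain arrays read 7.05, 9.45, 8.19, 9.42 and 9.38, so 3 of them lay above the highest baseline array, 8.72, and 1 below the lowest, 7.21. The arrays conditioned under isoflurane read 8.53, 8.26, 8.95, 8.97 and 8.94, all above the baseline mean of 8.13. The difference from baseline was 0.57 after pain (SE 0.34, limma adjusted p = 0.618) and 0.60 after conditioning under isoflurane (SE 0.34, adjusted p = 0.8), with an interval from -0.09 to 1.29 for the latter. With the 4 tested Gabbr1 probe sets averaged per array, the gene differed from baseline by 0.12, 0.01, 0.04 and 0.20 (SE 0.10 each, lowest limma adjusted p = 0.77).

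**Figure D3:**
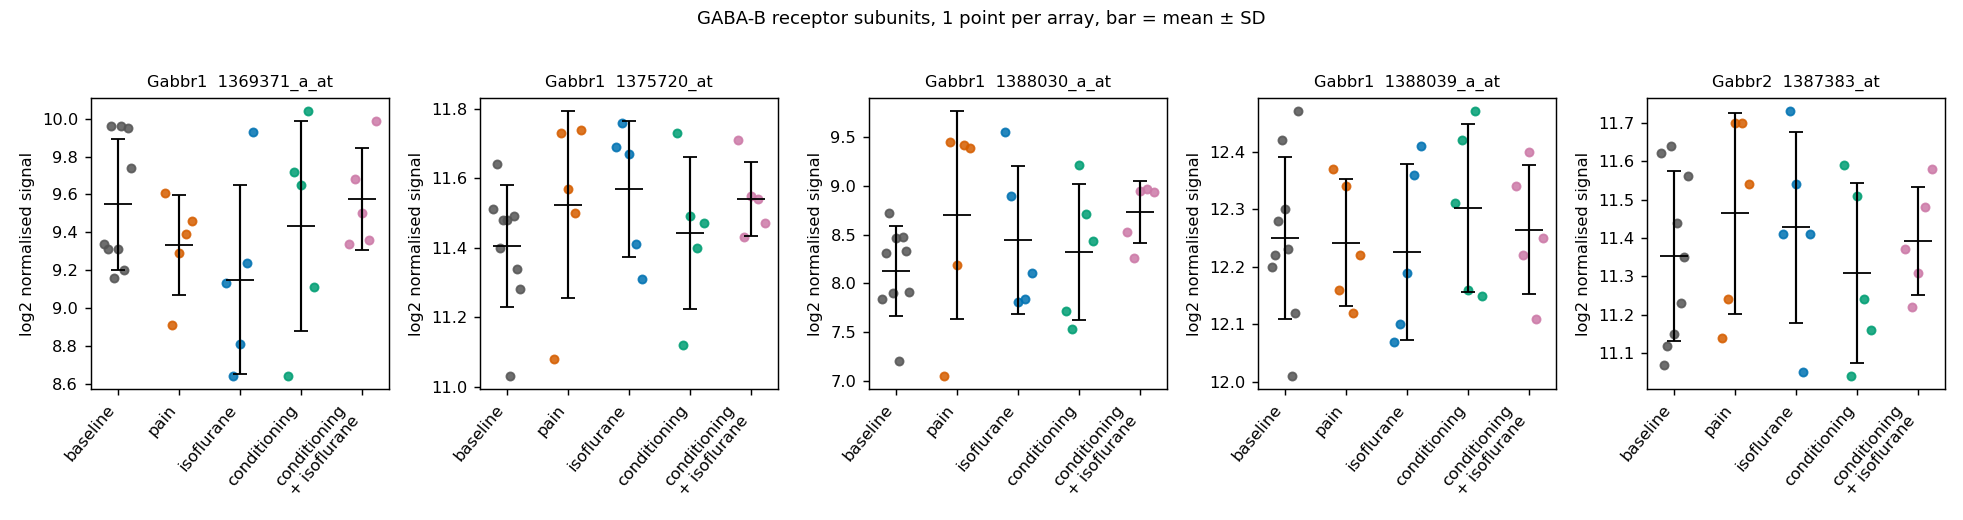
Log2 normalised signal of the 5 tested GABA-B receptor probe sets on each array, with 1 point per array, a bar at the group mean and whiskers of 1 SD; the vertical axes differ between panels. All treated arrays of Gabbr1 1388039_a_at lie between 12.07 and 12.47, whereas Gabbr1 1388030_a_at spans 7.05 to 9.55.

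Kcnk1 (TWIK-1, probe set 1369500_at) was lowest in the group conditioned under isoflurane. The baseline arrays ran from 8.00 to 8.81 with a median of 8.34. The arrays conditioned under isoflurane read 7.71, 7.76, 8.14, 8.17 and 8.13, of which 2 lay below every baseline array and all 5 below the baseline mean of 8.39. The isoflurane arrays read 8.48, 8.63, 8.51, 7.81 and 8.28, with 4 above the highest of the group conditioned under isoflurane. The conditioning arrays fell into an upper pair (8.53 and 8.46) and 3 lower values (7.81, 7.88 and 7.80), and the pain arrays read 8.10, 8.20, 8.50, 8.48 and 8.36. Means ran from baseline (8.39 ± 0.29, SD, n = 9) through isoflurane (8.34 ± 0.32, n = 5), pain (8.33 ± 0.17) and conditioning (8.10 ± 0.36) to conditioning under isoflurane (7.98 ± 0.22). Only the step from pain to conditioning, 0.23, exceeded the smaller SD.

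For Kcnk1, conditioning under isoflurane minus baseline was -0.41 on the log2 scale (SE 0.15, limma adjusted p = 0.69), a 0.753-fold level. This difference stayed between -0.46 and -0.34 as each of 14 arrays was left out. Conditioning under isoflurane minus isoflurane was -0.36 (SE 0.17, adjusted p = 0.998), and conditioning minus baseline was -0.30 (adjusted p = 0.518). Isoflurane alone minus baseline was -0.05 with an interval from -0.36 to 0.26, and the average isoflurane effect was -0.08 (interval -0.32 to 0.16). Beside the Kcnk1 value, 4 of 4 tested endothelial and pericyte genes were higher in conditioning under isoflurane than at baseline (median 0.35). The same held for 8 of 10 astrocyte genes (median 0.12). The summed normalised signal of the endothelial and pericyte genes ran from 1442 to 1945, against 1188 to 1641 at baseline. Within groups, over 29 arrays and as 1 of 143 relations, Kcnk1 ran against the endothelial and pericyte score (r = -0.58, rho = -0.57, permutation p = 0.00296, adjusted p = 0.0605; -0.54 without the 2 farthest arrays, -0.64 with a named kit and -0.55 in the others), short of the threshold after adjustment. Kcnk1 ran about as much against the astrocyte score (r = -0.56, rho = -0.56, permutation p = 0.00344, adjusted p = 0.0615). Against the oligodendrocyte score r was -0.53 (permutation p = 0.00549, adjusted p = 0.0872). After isoflurane alone, 4 of 4 endothelial and pericyte genes were higher than baseline too (median 0.15), beside the Kcnk1 value of -0.05. The part of the endothelial, pericyte and glial genes in the Kcnk1 values was not tested.

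Kcnk3 (TASK-1) was highest in mean after isoflurane alone on its tested probe set, 1387441_at. The baseline arrays ran from 7.05 to 7.76 with a median of 7.41, and the isoflurane arrays read 7.78, 8.20, 8.06, 7.75 and 7.55. All 5 isoflurane arrays exceeded the baseline mean of 7.40, and 3 exceeded every baseline array. The arrays conditioned under isoflurane read 7.21, 7.33, 7.61, 7.79 and 6.93 and lay around the baseline mean. The conditioning arrays were the most scattered, at 8.12, 6.55, 7.04, 8.09 and 7.41, and the pain arrays read 7.13, 7.97, 7.71, 7.85 and 7.56. Means were ordered isoflurane (7.87 ± 0.26, SD, n = 5), pain (7.64 ± 0.33), conditioning (7.44 ± 0.68), baseline (7.40 ± 0.27, n = 9) and conditioning under isoflurane (7.38 ± 0.34), and no neighbouring step exceeded the smaller SD.

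Isoflurane minus baseline was 0.46 for Kcnk3 (SE 0.21, limma adjusted p = 0.922), a 1.38-fold level with an interval of 1.03 to 1.85. It stayed between 0.38 and 0.54 as single arrays were left out. Isoflurane replicate 2, with the highest beta-actin ratio, was also the highest Kcnk3 array of its group. Within groups, Kcnk3 and that ratio had r = 0.39 (permutation p = 0.0508, adjusted p = 0.291). The part of RNA quality in the Kcnk3 value was not tested. Conditioning under isoflurane minus isoflurane was -0.49 (SE 0.24, adjusted p = 0.998). Isoflurane against no isoflurane within the conditioned animals gave -0.07 (interval -0.55 to 0.41), and the average isoflurane effect was 0.20 (interval -0.12 to 0.52). Against baseline replicates 1 to 5 alone the isoflurane value was 0.38 (limma adjusted p = 1).

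Kcnk2 (TREK-1, probe set 1370342_at) varied more within the baseline group than between groups. The 9 baseline arrays ran from 7.53 to 9.80 with a median of 8.74. Pain arrays gave 9.21, 9.22, 8.23, 8.38 and 8.73, the isoflurane arrays 8.67, 8.47, 8.34, 8.37 and 9.04, the conditioning arrays 8.23, 7.85, 8.25, 8.80 and 8.05, and those conditioned under isoflurane 9.20, 8.54, 8.93, 8.93 and 8.08. Every treated array lay inside the baseline range. Means were ordered pain (8.75 ± 0.46, SD, n = 5), conditioning under isoflurane (8.74 ± 0.44), baseline (8.70 ± 0.77, n = 9), isoflurane (8.58 ± 0.29) and conditioning (8.24 ± 0.35). Only the last step, 0.34, exceeded the smaller SD, and 4 of 5 conditioning arrays lay below the baseline mean.

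The value of Kcnk2 after conditioning depended on which baseline arrays it was set against. Conditioning minus baseline was -0.46 (SE 0.28, limma adjusted p = 0.57). The baseline arrays split into replicates 1 to 5 with a mean of 9.06 and replicates 6 to 9 with a mean of 8.25. Against the first the difference was -0.82 (limma adjusted p = 0.66), and against the second it was -0.02 (adjusted p = 0.98). Comparisons that use no baseline array were conditioning minus pain, -0.52 (SE 0.32, limma adjusted p = 0.59), and conditioning under isoflurane minus conditioning, 0.50 (SE 0.32, adjusted p = 0.999). Isoflurane minus baseline was -0.12 with an interval from -0.69 to 0.45.

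**Figure D4:**
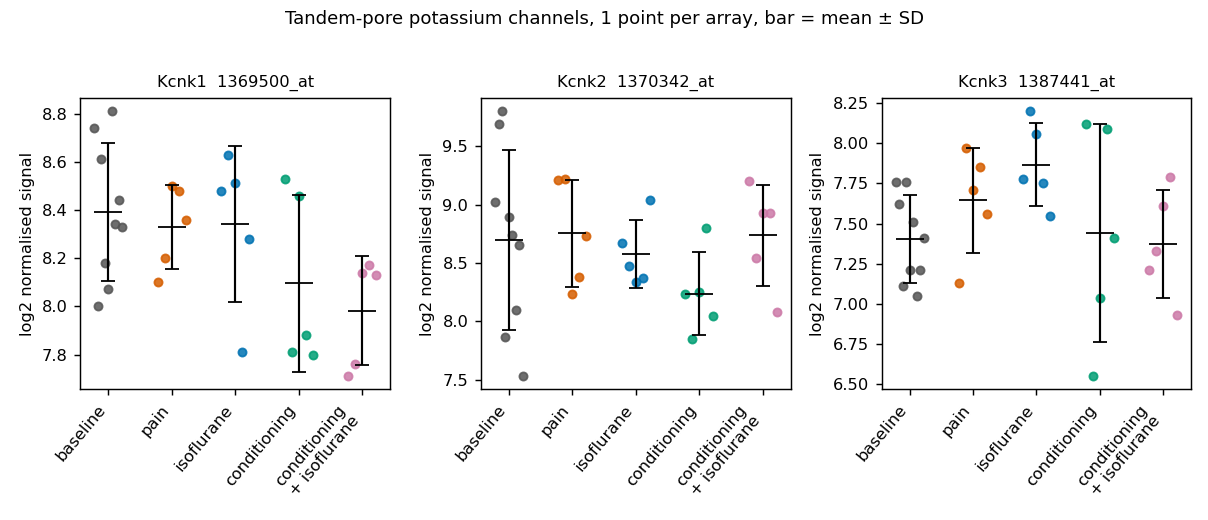
Log2 normalised signal of the 3 tested K2P channel probe sets on each array, with 1 point per array, a bar at the group mean and whiskers of 1 SD; the vertical axes differ between panels. Kcnk1 is lowest after conditioning under isoflurane, Kcnk3 is highest after isoflurane, and the baseline arrays of Kcnk2 spread from 7.53 to 9.80.

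Kcnk2 followed the striatal marker genes from array to array. The striatal score was the mean log2 signal of 5 genes with striatal expression, Drd1, Drd2, Ppp1r1b, Rgs9 and Penk. Adora2a lay below the level for testing. After subtraction of group means, Kcnk2 and the score had Pearson r = 0.77 over 29 arrays (permutation p = 3e-05 within groups, adjusted p = 0.00429 over 143 relations of probe sets with array measures) and Spearman rho = 0.73 (permutation p = 3e-05). Without the 2 arrays farthest from the median score r was 0.70. It was 0.89 over the 14 arrays with a named kit and 0.54 over the other 15. Drd1, the dopamine D1 receptor gene of striatal projection neurons, was the gene most like Kcnk2 (r = 0.83). It is part of the score, so this is not a separate result.

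Both Kcnk2 and the striatal score were lowest in mean after conditioning. The score averaged 9.36 (SD 0.50) at baseline, 9.17 after pain, 9.24 after isoflurane, 9.02 after conditioning and 9.36 after conditioning under isoflurane. The summed normalised signal of the 5 genes ran from 3508 to 13579 at baseline, from 4448 to 11401 after pain and from 4333 to 8744 after isoflurane. It ran from 3485 to 10285 after conditioning and from 5631 to 8398 after conditioning under isoflurane. The part of dissected striatal tissue in the Kcnk2 values was not tested. Glra2 1371153_a_at was related to the same score (r = 0.59, rho = 0.63, permutation p = 0.00129, adjusted p = 0.0369, and r = 0.53 without the 2 farthest arrays).

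**Figure D5:**
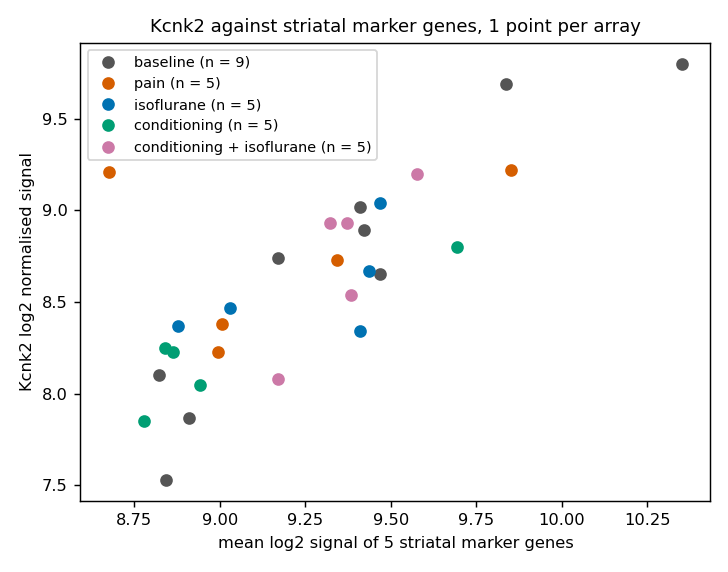
Kcnk2 log2 normalised signal (vertical axis) against the mean log2 signal of 5 striatal marker genes (horizontal axis), with 1 point per array coloured by group and group means left in. Points rise from lower left to upper right, baseline arrays occupy both ends, and 4 of the 5 conditioning arrays lie at the lower left.

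The other relations with array measures that passed adjustment on both r and rho concerned glial and vascular markers. Gabbr2 1387383_at ran against the astrocyte score (r = -0.67, rho = -0.60, permutation p = 0.00023, adjusted p = 0.0133, and r = -0.58 without the 2 farthest arrays). Kcnk3 1387441_at did so as well (r = -0.63, rho = -0.60, permutation p = 0.00028, adjusted p = 0.0133, and r = -0.56). Gabbr1 1388039_a_at ran with the endothelial and pericyte score (r = 0.65, rho = 0.66, permutation p = 0.00078, adjusted p = 0.0279, and r = 0.60). In the arrays with a named kit and in the others, r was -0.71 and -0.63 for Gabbr2, -0.60 and -0.68 for Kcnk3, and 0.76 and 0.56 for Gabbr1. Glra2 1371153_a_at ran with the GABAergic neuron score by rho only (rho = 0.59, permutation adjusted p = 0.0422). Its r was 0.48 (permutation adjusted p = 0.131), and 0.26 and 0.78 by kit. Gabbr2 ran with the excitatory projection neuron score short of the threshold (r = 0.59, permutation adjusted p = 0.0605). These are relations within groups over 29 arrays, and the arrays are not all stated to come from separate animals.

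Between the 11 probe sets themselves, 4 of 55 pairs were related after adjustment. Gabbr1 1369371_a_at and Gabbr1 1375720_at, which are annotated to the same gene, ran in opposite directions (r = -0.71, rho = -0.74, permutation p = 7e-05, adjusted p = 0.00385), and r was -0.64 without the 2 farthest arrays, -0.80 with a named kit and -0.63 in the others. Gabbr2 ran with Kcnk1 (r = 0.70, rho = 0.68, permutation p = 0.00024, adjusted p = 0.0066; 0.64 without the 2 farthest, 0.59 and 0.84 by kit). Glra2 1371153_a_at ran with Glrb (r = 0.68, rho = 0.58, permutation p = 0.00047, adjusted p = 0.00862; 0.58, then 0.80 and 0.48) and with Kcnk2 (r = 0.56, rho = 0.52, permutation p = 0.0031, adjusted p = 0.0426; 0.60, then 0.66 and 0.32). The Spearman value of the last pair did not pass (adjusted p = 0.124). The probe sets of Glra2 were only loosely related to each other (r = 0.34, permutation p = 0.0988, adjusted p = 0.32).

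The genes whose deviations from group means were most like each member's, over 29 arrays, are given as a description. For Glrb they were Ywhab (r = 0.85), a 14-3-3 protein, Ppp1r2 (0.85), an inhibitor of protein phosphatase 1, and Mtpn (0.84). For Glra2 1371153_a_at they were Uba2 (0.83), Tpi1 (0.81) and Vsnl1 (0.75), a neuronal calcium sensor, and for Glra2 1387696_a_at Hdac2 (0.72), Ube2b (0.71) and Dnaja1 (0.70). Gabbr2 was most like Gprin1 (0.79), Ptprn2 (0.77) and Cx3cl1 (0.77), the neuronal chemokine. Kcnk1 was most like Ptprdl (0.86), Nans (0.78) and Psmg3 (0.78), Kcnk3 most like Mllt11 (0.74), Depdc5 (0.68) and Ppcs (0.65), and Kcnk2, after Drd1, most like Olfm3 (0.83) and Msrb2 (0.82). Each Gabbr1 probe set had different leading genes: Sptbn1 (0.69) for 1369371_a_at, Ppp1r11 (0.70) for 1375720_at, Ip6k2 (0.76) for 1388030_a_at and Zc3h11a (0.70) for 1388039_a_at.

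The 7 probe sets below the level for testing are given by their values only. Glra1, the alpha subunit of adult spinal cord and brainstem receptors, averaged 6.37, 6.42, 6.12, 6.14 and 5.78 on 1371156_a_at at baseline, after pain, isoflurane, conditioning and conditioning under isoflurane. Its other probe set, 1387464_at, averaged 4.22 to 4.91 in the 5 groups, close to the floor of 4 on the log2 scale. Kcnk9 (TASK-3) had means of 6.74, 6.75, 6.67, 6.83 and 6.86 in the same order and a range over all arrays from 5.99 to 7.14. Gabbr1 1369372_at averaged 4.64 to 6.06 and was highest after conditioning under isoflurane, where its arrays read 6.71, 5.01, 4.79, 7.07 and 6.74. Gabbr2 1368952_at averaged 6.54 to 7.06. Kcnk3 1375807_at averaged 6.25 at baseline, 5.92 after pain, 6.17 after isoflurane, 6.37 after conditioning and 5.38 after conditioning under isoflurane. It differed within the baseline group, with 5.61 in replicates 1 to 5 and 7.06 in replicates 6 to 9. Kcnk3 1398313_a_at averaged 4.60 at baseline and 4.06 after isoflurane, and was at the floor on all 5 pain arrays. Neither of these Kcnk3 sets was highest after isoflurane.

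Other genes of the same pathways were counted from lists. On the glycine side, 8 of 11 listed genes were on the array and 6 were tested (8 probe sets): genes of glycine transport, gephyrin and glycine breakdown. At an unadjusted p under 0.05 stood 1 of the 8 probe sets in isoflurane minus baseline (5.38% of all probe sets), in conditioning minus baseline (10.1%), in conditioning under isoflurane minus baseline (6.5%) and in the average isoflurane effect (3.75%), and 0 in the other 5 contrasts; 0 passed adjustment in limma. In each case it was Dld, the dihydrolipoamide dehydrogenase shared by the glycine cleavage system and other mitochondrial complexes. It differed from baseline by -0.23 after isoflurane (SE 0.09, limma adjusted p = 0.922), by -0.21 after conditioning (SE 0.09, adjusted p = 0.45) and by -0.32 after conditioning under isoflurane (SE 0.09, adjusted p = 0.499).

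On the GABA-B side, 16 of 20 listed genes were on the array and 14 were tested (18 probe sets), and 0 passed adjustment in limma. At an unadjusted p under 0.05 stood 2 of 18 after pain (8.96% of all probe sets), 1 after isoflurane (5.38%), 2 after conditioning (10.1%) and 3 after conditioning under isoflurane (6.5%), each against baseline. There were 2 in conditioning minus pain (9.04%), 1 in conditioning under isoflurane minus conditioning (3.69%), 1 in the average isoflurane effect (3.75%), 1 in the interaction (4.79%) and 0 in conditioning under isoflurane minus isoflurane (4%). The genes named next were picked by that p, and the counts were not tested against the shares. Gnai1, an inhibitory G protein alpha subunit, differed from baseline by -0.36 after pain (SE 0.16, limma adjusted p = 0.524), -0.50 after isoflurane (SE 0.16, adjusted p = 0.922) and -0.37 after conditioning under isoflurane (SE 0.16, adjusted p = 0.732). After conditioning, Gnai1 differed by a similar -0.33 (SE 0.16, limma adjusted p = 0.493), just short of the unadjusted threshold. Gnb1, a G protein beta subunit, had 3 tested probe sets that disagreed. The one picked differed from baseline by -0.29 after conditioning (SE 0.12, limma adjusted p = 0.45) and by -0.25 after conditioning under isoflurane (SE 0.12, adjusted p = 0.764), and by -0.36 in conditioning minus pain. The same differences were 0.76, -0.07 and 1.33 on the second Gnb1 set (SE 0.59 against baseline, 0.67 against pain) and -0.08, -0.05 and -0.05 on the remaining one. The potassium channel genes that GABA-B receptors act through gave 0.58 after pain on one Kcnj3 probe set (SE 0.22, limma adjusted p = 0.473), 0.28 on the other (SE 0.16, adjusted p = 0.609), and 0.44 for Kcnj5 after conditioning under isoflurane (SE 0.18, adjusted p = 0.698). Kctd12, an auxiliary subunit of the receptor, was higher in mean after conditioning, by 0.33 against baseline (SE 0.16, adjusted p = 0.488) and 0.43 against pain (SE 0.18, adjusted p = 0.521), and its interaction was -0.57 (SE 0.24, adjusted p = 0.959).

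Of the 18 other leak channel and partner genes listed, 13 were on the array and 8 were tested (9 probe sets), and 0 passed adjustment in limma. At an unadjusted p under 0.05 stood 1 of 9 in conditioning under isoflurane minus baseline (6.5% of all probe sets), minus conditioning (3.69%) and minus isoflurane (4%), and 1 in conditioning minus pain (9.04%). There were 0 in the other 5 contrasts. The counts were not tested against these shares. Kcnk6, the TWIK-2 relative of Kcnk1, differed by -0.42 in conditioning under isoflurane minus baseline (SE 0.15, limma adjusted p = 0.658), by -0.36 against conditioning (SE 0.17, adjusted p = 0.999) and by -0.44 against isoflurane (SE 0.17, adjusted p = 0.998). The corresponding values of Kcnk1 were -0.41, -0.11 and -0.36. S100a10, which binds Kcnk3 and helps set its level at the membrane, differed by -0.38 in conditioning minus pain (SE 0.18, adjusted p = 0.532). The medians over the tested genes of the lists against baseline lay between -0.10 and 0.06, beside 0 over all probe sets.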

How the data were processed

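Each of the 29 arrays had 1 column of linear intensity values, deposited by the authors; a mean of 500.1 on every array, after trimming 2% at either end, shows a scaling per array. The software is not given in the sources used here. Gene names came from the platform annotation. Medians ranged from 210.7 to 292.2, so the arrays were quantile normalised, given a floor of 16 and converted to log2. After removal of 57 control probe sets, those with a mean at or above the 40th percentile (9520 of 15866) were fitted with limma 3.58.1 in R 4.3.3 (lmFit, eBayes with trend, 1 mean per group, all arrays), with Benjamini-Hochberg adjustment over all of them; the script was tested on simulated data. The average isoflurane effect averages the difference isoflurane makes with and without conditioning. Correlations used deviations from group means and 100000 permutations within groups. Of the arrays, 15 carry rat numbers. The number of arrays limits the precision.

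The members and lists were chosen with earlier results of these data known. The report names every probe set of the 9 genes, pathway genes with an unadjusted p under 0.05, and the 3 most alike genes (for Gabbr1 the first). Alternatives were the deposited scaling, median centring, other filters and floors, the replicate block, only the groups compared, array weights, parts of the baseline, gene means and each array left out.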

Additional observations from a re-analysis of the deposited data

Results flagged for a closer look

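Of 89 groups of 5 or 9 arrays over the members' probe sets, 6 held an array that stood apart from the rest of its group. Chance gives about 1 in 20. For Glra2 1371153_a_at, replicate 3 of conditioning under isoflurane was low, at 6.44 against 7.13 for the nearest array. For Glra2 1387696_a_at, pain replicate 1 was low, at 8.69 against 9.13. Glrb had 2 such arrays: pain replicate 3 was low, at 8.48 against 8.88, and conditioning replicate 3 was high, at 9.42 against 8.72. Below the level for testing, Kcnk9 was low on pain replicate 4, at 5.99 against 6.83, and Kcnk3 1398313_a_at was at 4.30 on isoflurane replicate 5 with the other arrays of that group at the floor of 4.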

How the results depend on the processing

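Of 924 member differences re-estimated under other settings, 0 had an adjusted p under 0.05 (lowest 0.18), nor did any of 1474 with an array left out (lowest 0.262). The 11 differences at unadjusted p under 0.05 kept their sign in every setting that gave a value; among the rest, 68 of the re-estimates under other settings changed sign, for differences of up to 0.40. At the 70th percentile 6 of the 11 member probe sets were not tested. Counts of all probe sets called moved more. With median centring, 10 were called after pain and 0 after isoflurane. The average isoflurane effect gave 1 with the deposited scaling, 1 without a filter and 1 at the 70th percentile, where pain gave 4. Without a filter the F test gave 2. Isoflurane minus baseline gave 0 with the replicate block, 0 with only the groups compared and 0 against baseline replicates 1 to 5. Against replicates 6 to 9 the counts were 160 for pain, 29 for isoflurane, 101 for conditioning, 57 for conditioning under isoflurane and 3 for the F test. Leaving out 1 array gave 0 to 6 for pain minus baseline (6 without baseline replicate 3), 0 to 3 for conditioning minus pain (3 without pain replicate 4), 0 to 1 for isoflurane minus baseline, 0 to 1 for the average isoflurane effect and 0 to 1 for the F test. Same-numbered arrays of different groups showed no shared deviation (50 pairs, r from -0.24 to 0.26, median -0.01, 11 over 0.1), so they were not treated as pairs. With the replicate block, which also drops baseline replicates 6 to 9, Glra2 1387696_a_at differed by -0.66 after conditioning (limma adjusted p = 0.668). Groups of 5 arrays and probe sets near the floor limit what could be detected.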
